A study of Homo sapiens with 2 samples.

Results

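The 10 genes described here, ASCL2, EPHB2, EPHB3, CD44, PROM1, OLFM4, SMOC2, RGMB, MSI1 and LRIG1, mark or act in the stem cell compartment at the base of the intestinal crypt. They were chosen by name, and their peaks were all rows of the deposited APC peak list that give one of these names as the gene, which made 16 of 44771 peaks. The list comes from 1 chromatin immunoprecipitation in HCT-116, an established human colon carcinoma line with wild-type APC and a β-catenin lacking serine 45 (CTNNB1{delta}Ser45). The antibody was polyclonal and recognised the C-terminal tail of APC. No treatment of the cells is given, and a pre-cleared input library of the same cells was the only other sample. Neither library had a replicate, so no test was made. The list gives no read counts, so the depth is unknown and the score column holds only each peak's length in bp. Lengths and shares below describe this library.

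Stem cells at the crypt base are kept by WNT ligands from their niche, which stabilise β-catenin and let it activate target genes together with TCF/LEF factors. APC is the scaffold of the complex that marks β-catenin for degradation, and its loss in the intestine keeps the crypt programme on. ASCL2, EPHB2, EPHB3 and CD44 are known WNT targets in this tissue, while OLFM4, SMOC2, RGMB, MSI1, LRIG1 and PROM1 are used as markers of crypt base or progenitor cells.

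Of the 10 genes, 7 had at least 1 named peak and 3 (EPHB2, PROM1 and OLFM4) had none. Among 20056 protein-coding genes, 67.4% had a named peak, so the 70.0% of the crypt genes (95% Wilson interval 39.7 to 89.2) lay near the background. A peak centre within 10 kb of the transcription start site (TSS) was found for 4 genes, ASCL2, CD44, RGMB and LRIG1 (40.0%, interval 16.8 to 68.7), against 50.8% of protein-coding genes. A peak that reached across the TSS was found for 3 genes, CD44, RGMB and LRIG1 (30.0%, interval 10.8 to 60.3), against 36.5%. Each of the 3 background shares lay within the interval of the crypt genes, and the intervals cover counting error only.

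**Figure D1:**
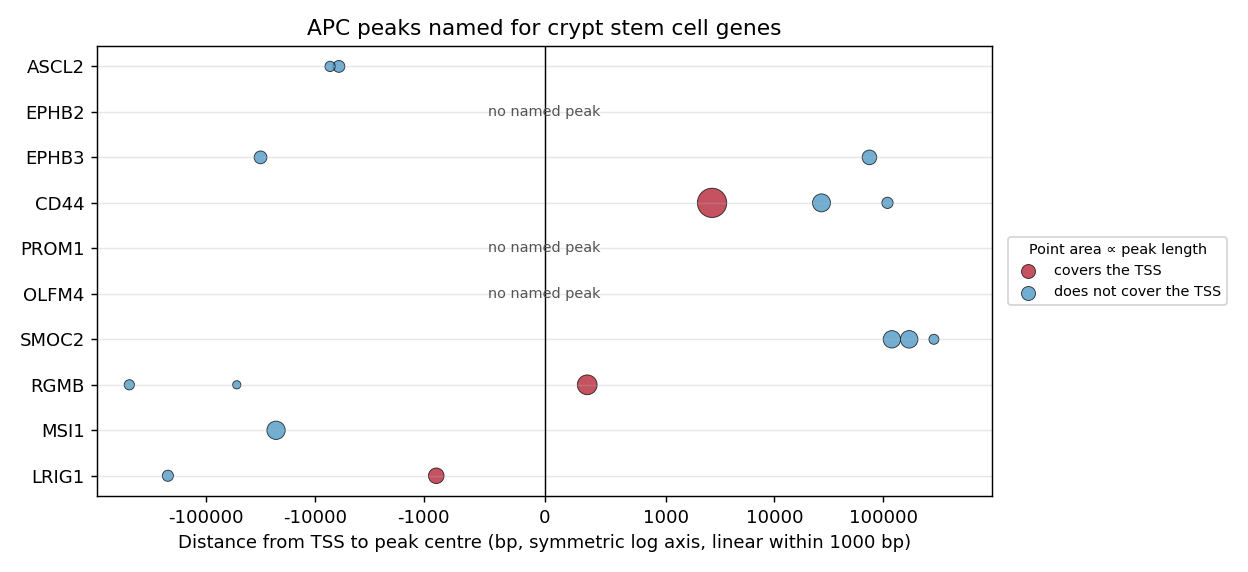
Signed distance in bp from the TSS of the named gene to the centre of each of the 16 peaks, on a symmetric log axis, with point area proportional to peak length. The 3 peaks in red, at CD44, RGMB and LRIG1, cover the TSS; EPHB2, PROM1 and OLFM4 have no named peak.

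The promoter sequences of the 3 genes whose start lay under a peak are shown first, beside that of OLFM4, which lay in the longest peak-free stretch among the 3 genes without a named peak. Each runs from 250 bases before to 50 bases after a RefSeq start on GRCh38.p14, 5′ to 3′. Windows were held for 8 of the 10 genes, all but ASCL2 and MSI1. RefSeq gives 1 start for CD44 and OLFM4, 4 for LRIG1 and 3 for RGMB, and the window of the most upstream start is printed. Which of the LRIG1 and RGMB starts is the one used in the hg19 peak list was not matched. The windows are CD44 at chr11:35138921-35139220 on the plus strand, LRIG1 at chr3:66501072-66501371 on the minus strand, RGMB at chr5:98768382-98768681 on the plus strand and OLFM4 at chr13:53028563-53028862 on the plus strand. Capitals mark matches to the GC box GGGCGG or to the AP-1 motif TGANTCA, on either strand.
CD44: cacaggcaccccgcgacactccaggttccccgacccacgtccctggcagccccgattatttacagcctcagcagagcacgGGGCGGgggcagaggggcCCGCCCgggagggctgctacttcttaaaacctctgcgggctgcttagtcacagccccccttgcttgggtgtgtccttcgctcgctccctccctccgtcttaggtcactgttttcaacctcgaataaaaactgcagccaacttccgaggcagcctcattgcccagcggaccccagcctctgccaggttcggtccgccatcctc
LRIG1: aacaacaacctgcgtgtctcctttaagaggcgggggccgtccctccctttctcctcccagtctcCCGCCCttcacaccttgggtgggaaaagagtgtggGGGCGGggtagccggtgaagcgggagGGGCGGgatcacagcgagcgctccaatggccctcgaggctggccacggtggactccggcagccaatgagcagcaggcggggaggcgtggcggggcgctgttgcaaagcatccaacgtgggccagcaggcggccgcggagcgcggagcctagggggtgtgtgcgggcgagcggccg
RGMB: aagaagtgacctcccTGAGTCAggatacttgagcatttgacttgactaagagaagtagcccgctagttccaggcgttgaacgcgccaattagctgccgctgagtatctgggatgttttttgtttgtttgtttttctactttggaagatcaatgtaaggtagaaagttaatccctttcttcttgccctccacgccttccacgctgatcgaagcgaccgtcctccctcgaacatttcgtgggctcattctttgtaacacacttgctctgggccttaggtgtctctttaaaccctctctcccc
OLFM4: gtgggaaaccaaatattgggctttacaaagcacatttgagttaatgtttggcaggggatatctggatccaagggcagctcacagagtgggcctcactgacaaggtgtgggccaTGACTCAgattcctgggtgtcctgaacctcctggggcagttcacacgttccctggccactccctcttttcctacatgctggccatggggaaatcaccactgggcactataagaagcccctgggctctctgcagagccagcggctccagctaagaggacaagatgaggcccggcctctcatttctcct

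The TCF/LEF core CTTTGA, which reads TCAAAG on the other strand, was in none of the 8 most upstream windows, and 12.9% of all 35116 windows of this length held it. The AP-1 motif TGANTCA, the letters bound by JUN and FOS dimers and the same on both strands, was in 2 of the 8, those of RGMB (TGAGTCA, 235 bases upstream of the start) and OLFM4 (TGACTCA, 137 bases upstream), against 7.71% of all windows. The GC box was in 5 of the 8, among them CD44 with 2 matches and LRIG1 with 3, against 45.0% of all windows. The shares of all windows count every start of a gene, while the 8 are 1 window per gene. With 8 windows these counts are small, and no difference was tested. The motifs searched do not share letters at any match in the 4 printed windows. Over all 17 RefSeq windows of the 8 genes, 1 held the TCF/LEF core (the fourth window of PROM1), 4 held the AP-1 motif (these 2 and the fourth windows of LRIG1 and PROM1) and 12 the GC box. The first 2 windows of EPHB2 overlap, as do those of LRIG1, so the same GC box can count in more than 1 window. The AP-1 letters were in the first window of RGMB, which had a peak over the listed TSS. They were also in windows of OLFM4 and PROM1, which had no named peak. At LRIG1 they were only in the fourth window, which starts at 66405718, while its others start between 66500005 and 66501072. Whether the letters at RGMB or LRIG1 lay under a peak was not matched. A match is a description of the letters and not of binding.

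CD44, a hyaluronan receptor and WNT target found on crypt base cells and in colon cancer, had the longest peak of the group. This peak was 6585 bp long (hg19, chromosome 11, 35159803 to 35166386) and was centred in intron 1, 2677 bp downstream of the TSS. It reached 614.5 bp past the TSS on the upstream side, so it took in the promoter shown above and the start of the gene. Only 621 of all 44771 peaks (1.39%) were longer, and it was longer than 98.9% of intronic peaks. All peaks that cover a TSS had a median of 2249 bp, against 1184 bp for the others. The rank of the CD44 peak among those over a TSS was not computed. A second intron 1 peak of 2481 bp (35186314 to 35188793) was centred 27136 bp downstream of the TSS. The third peak, 974 bp (35269586 to 35270558), was intergenic, 109655 bp downstream. All 3 CD44 peaks were centred outside annotated repeats, and the farther a peak lay from the TSS, the shorter it was.

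RGMB, a membrane-anchored co-receptor for bone morphogenetic proteins, had a peak of 2992 bp over its start (chromosome 5, 98103856 to 98106846), with the centre 352 bp past the TSS. The list annotates this peak not to RGMB but to the transcription termination site of NR_033932, the transcript of the antisense gene RGMB-AS1. A separate 2290-bp peak lay 1630 bp away (98108476 to 98110764) at the promoter of RGMB-AS1, so the start of RGMB and that of its antisense partner each lay near a peak. Chromatin immunoprecipitation does not mark a strand, and the peaks cannot be assigned to either of the overlapping genes. The other RGMB peaks were far off and short: 523 bp, in an AluSx1 element 52412 bp upstream, and 804 bp, in an L1M1 element 509437 bp upstream. The 523-bp peak was among the shortest in the list, longer than 1.61% of all peaks.

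LRIG1, a transmembrane brake on ERBB receptor signalling that marks a slowly cycling stem cell population in the mouse intestine, had the only peak of the group labelled as a promoter. It was 1867 bp long (chromosome 3, 66550810 to 66552675) and was centred 897 bp upstream of the TSS. Its edge passed the TSS by 35.5 bp, so most of it lay upstream of the gene. It was longer than 68.1% of all peaks but only 39.0% of promoter peaks. The other LRIG1 peak, 954 bp in an AluSz6 element (66775643 to 66776595), lay 225274 bp upstream.

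ASCL2, the basic helix-loop-helix factor that directs stem cell fate in the crypt, had 2 short peaks upstream and none over its start. They were 1088 bp (chromosome 11, 2297672 to 2298758) and 814 bp (2299050 to 2299862) long, and were centred 6033 and 7274 bp upstream of the TSS. A stretch of 292 bp separated them. The nearer was centred in a MER74A long terminal repeat and the other in an L1MEc element, and they were longer than 37.6% and 22.2% of all peaks. On the side away from ASCL2, the next peak was an 858-bp one in an intron of TSPAN32, 26486 bp on.

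EPHB3 and EPHB2 are receptors for ephrin-B ligands and position cells along the crypt axis. EPHB3 had 2 intergenic peaks, 1259 bp long in an AluSx element 31677 bp upstream (chromosome 3, 184247282 to 184248539) and 1641 bp long outside repeats 74863 bp downstream (184353631 to 184355270). Neither was within 10 kb of the TSS. No peak was annotated to an EPHB3 transcript.

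EPHB2 had no named peak, yet 5 peaks lay in its introns. They were named for MIR4684 or MIR4253, microRNA genes that lie inside EPHB2 by the RefSeq table. In intron 1 of transcript NM_004442 lay peaks of 1889 bp (chromosome 1, 23065085 to 23066972) and 2832 bp (23076414 to 23079244). The longest, 3130 bp (23142595 to 23145723), lay in intron 3 and was longer than 91.4% of intronic peaks. A peak of 834 bp in intron 5 was centred in an AluSg element, and one of 1859 bp in intron 9 in an L2b element. These 5 peaks summed to 10544 bp, slightly more than the 10040 bp of the 3 CD44 peaks. Counting peaks by the transcript of the annotation instead of the gene name gave 5 for EPHB2, 2 each for CD44 and SMOC2, 1 for LRIG1 and none for the other 6 genes, so 4 of 10 genes had one, against 56.3% of protein-coding genes. Of 6538 protein-coding genes without a named peak, 914 (14.0%) had a peak annotated to one of their transcripts and 27 (0.413%), EPHB2 among them, had 5 or more.

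**Figure D2:**
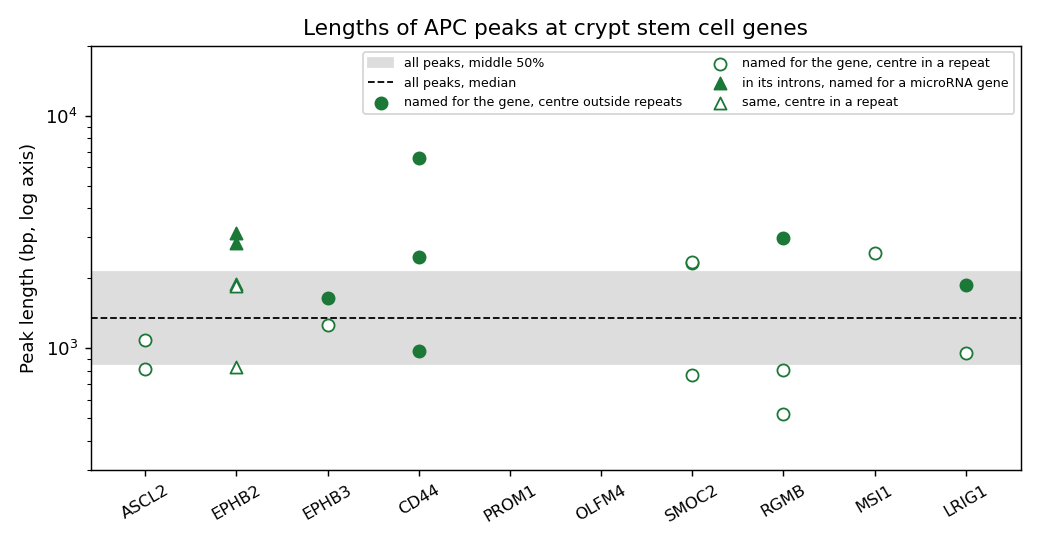
Length in bp, on a log axis, of each named peak (circles) and of the 5 peaks in EPHB2 introns that are named for microRNA genes (triangles), with open symbols for peaks centred in repeats. The grey band and dashed line give the middle 50% and the median (1350 bp) of all 44771 peaks; CD44 has the longest peak, 6585 bp, and at SMOC2 the 2322-bp and 2358-bp points overlap.

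SMOC2, a secreted matricellular protein enriched in crypt base cells, had 3 peaks, all far downstream of its TSS. A 2322-bp peak (chromosome 6, 168961043 to 168963363) lay in intron 7 of 12, 120372 bp from the TSS, and a 2358-bp peak (169014248 to 169016604) in intron 9, at 173595 bp. The second was centred in TAR1, a telomere-associated satellite found in several copies in the genome, and how reads that map to several places were treated is not given in the sources used here. Of all 44771 peaks, 54 (0.121%) were centred in satellites. The third SMOC2 peak, 767 bp in an MSTB long terminal repeat, was intergenic at 292919 bp.

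MSI1, an RNA-binding translational regulator used as a marker of neural and intestinal progenitors, had a single peak. It was 2581 bp long (chromosome 12, 120828512 to 120831091), was centred in an AluSc5 element 22818 bp upstream of the TSS, and was longer than 82.9% of all peaks. The nearest other peak, 2507 bp and named for COX6A1, lay 33061 bp away.

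PROM1, which encodes the membrane glycoprotein CD133, and OLFM4, a secreted glycoprotein strongly expressed in human crypt base cells, had neither a named peak nor one annotated to their transcripts. By the RefSeq order of genes, PROM1 lay in a stretch of 265629 bp without a peak, between peaks named for FGFBP1 and TAPT1 on chromosome 4. OLFM4 lay in a stretch of 1027685 bp between peaks named for LECT1 (now CNMD) and LINC00558 on chromosome 13. The start of EPHB2 also lay between peaks, in a stretch of 127817 bp that ends at its first intronic peak. The median gap between consecutive peaks was 21.4 kb. Of 44747 gaps, 10.5% were at least as long as that at EPHB2, 3.96% at least as long as that at PROM1, and 249 (0.556%) at least as long as that at OLFM4. Gaps include stretches that cannot be mapped, such as centromeres, and a gene is more likely to fall in a long gap than in a short one.

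**Figure D3:**
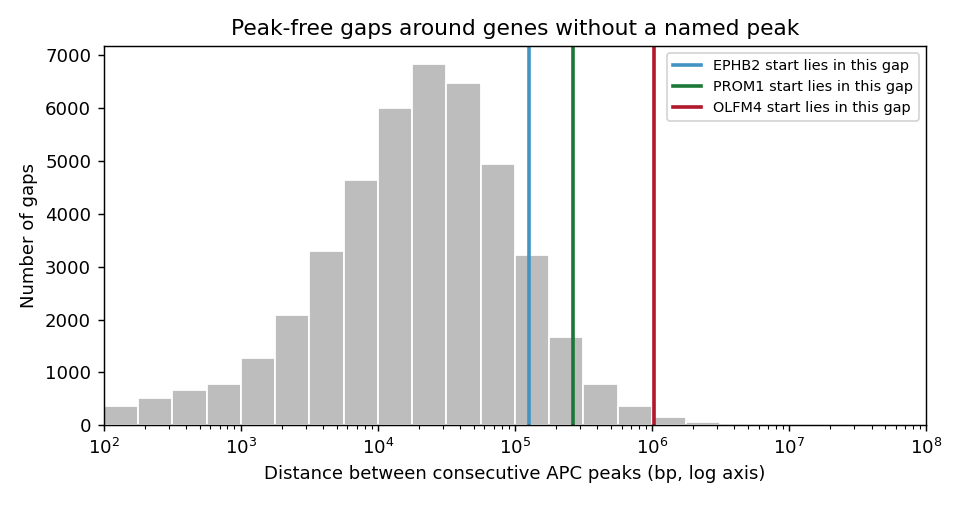
Number of gaps between consecutive APC peaks by gap length in bp, on a log axis. Vertical lines mark the gaps that hold the starts of EPHB2 (127817 bp), PROM1 (265629 bp) and OLFM4 (1027685 bp), all above the median of 21.4 kb.

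Over the 16 peaks, 10 were intergenic (62.5%, Wilson interval 38.6 to 81.5), against 36.1% of all peaks. Intronic were 4 (25.0%, interval 10.2 to 49.5), against 45.6%. The 5 peaks in EPHB2 introns are named for microRNA genes and are not among the 16. The intergenic and intronic shares thus depend on the naming rule. Beyond 100 kb from the TSS lay 6 of the 16 (37.5%, interval 18.5 to 61.4), 3 of them at SMOC2 and 1 each at CD44, RGMB and LRIG1, against 13.2% of all peaks. Peaks of 1 gene share a neighbourhood, so these 16 are not independent, and the intervals are too narrow. A repeat lay at the centre of 9 peaks (56.2%), against 52.4% of all peaks, 4 of them SINEs, 2 LINEs, 2 long terminal repeats and 1 satellite. The 16 lengths had a median of 1450 bp, against 1350 bp for all peaks. The 3 peaks over a TSS had a median of 2992 bp and the other 13 one of 1088 bp. The same division over all peaks gave 2249 bp and 1184 bp, so a longer peak at the start is found across the list, and a long peak is also more likely to reach a TSS. Genes with a peak had a median of 2 peaks here and among all protein-coding genes. The distance to the nearest peak had a median of 6033 bp over the 7 genes, against 862 bp over 13518 protein-coding genes with a peak.

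A wider list of genes that have been linked to the crypt base was described in the same way. Where these genes are expressed was not checked here. Of 29 such genes, 25 (86.2%, interval 69.4 to 94.5) had a named peak. A named peak centred within 10 kb was found for 21 (72.4%, interval 54.3 to 85.3). A peak over the TSS was found for 18 (62.1%, interval 44.0 to 77.3). The shares over all protein-coding genes were 67.4, 50.8 and 36.5%, and each interval lay above them, the first narrowly. The 29 were not chosen blind to these data, so this is not a test against the background. The longest within 10 kb were at AXIN2, a feedback scaffold of β-catenin degradation (6736 bp), ZFP36L1, an mRNA decay factor (5682 bp), SOX4 (3881 bp), CDK6, a cell cycle kinase (3863 bp), SLC12A2, an ion cotransporter (3416 bp), and SOX9, a transcription factor of crypt progenitors (2949 bp). LGR5, the R-spondin receptor that defines crypt base columnar cells, had a 2655-bp peak over its start. MEX3A, HOPX, CDX1 and ALDH1A1 had no named peak, although MEX3A, CDX1 and ALDH1A1 each had 1 peak annotated to a transcript of theirs and named for another gene (LMNA, SLC6A7 and LINC01474). Whether the 10 genes differ from these 29 was not tested, and both lists were drawn up with earlier results of these data known.

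Paralogs and ligands of the 10 genes had shares near the background. Of 34, 24 had a named peak, 20 (58.8%, interval 42.2 to 73.6) had one within 10 kb and 11 (32.4%, interval 19.1 to 49.2) had a peak over the TSS. Among the 12 other EPH receptors, 5 had a peak over the TSS, near the 36.5% of protein-coding genes. These were EPHA2 (5222 bp), EPHB4 (3345 bp), EPHA4 (3014 bp), EPHB6 (1662 bp) and EPHA1 (1263 bp). EPHB4 and EPHB6 were thus covered at the start where EPHB2 and EPHB3 were not, and EPHB1 had no named peak. All 8 ephrins, the ligands of these receptors, had a peak within 10 kb, against 50.8% of protein-coding genes. The longest were at EFNA5 (4517 bp), EFNA3 (4338 bp) and EFNA4 (3393 bp). A peak over the TSS was found for 4 of the 8, against 36.5%. The EFNB3 peak was centred 8246 bp upstream, and no peak was annotated to an EFNB3 transcript. The ephrins were picked out as a group after their values were seen. EFNB1, a ligand of EPHB2 and EPHB3, had a 1336-bp promoter peak over its start. LRIG2 (1653 bp) and LRIG3 (1936 bp) had peaks over their starts like LRIG1. MSI2 had 10 named peaks, the nearest a 1315-bp promoter peak centred 750 bp upstream, against the single distant peak of MSI1. OLFM1, SMOC1, ASCL3, ASCL4, ASCL5, EPHA5, EPHA8 and EPHA10 were also among the genes without a named peak.

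Genes of differentiated intestinal cells, a list that also holds progenitor genes such as DLL1, had named peaks at a share near the background but seldom at the start. Of 33, 22 had a named peak (66.7%), against 67.4% of protein-coding genes. A named peak within 10 kb was found for 8 (24.2%, interval 12.8 to 41.0), against 50.8%. A peak over the TSS was found for 2 (6.06%, interval 1.68 to 19.6), against 36.5%. These were LCT, the brush border lactase (1814 bp), and DLL1, a Notch ligand of secretory progenitors (1163 bp). Beyond these, the longest within 10 kb were at GUCA2A, the guanylin gene (3138 bp, in a simple repeat 1813 bp upstream), SPDEF, a goblet cell factor (1747 bp), VIL1, which encodes villin (1469 bp), and FCGBP, a mucus protein (842 bp). FABP1, CA1, CA2, MS4A12, APOA4, TFF3, NEUROG3, ZG16, REG4, LYZ and DLL4 had no named peak, although CA2 had 1 peak annotated to its transcript. The series has no measure of transcription and no immunoprecipitation with a control antibody, and the part of open chromatin in these shares was not tested.

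**Figure D4:**
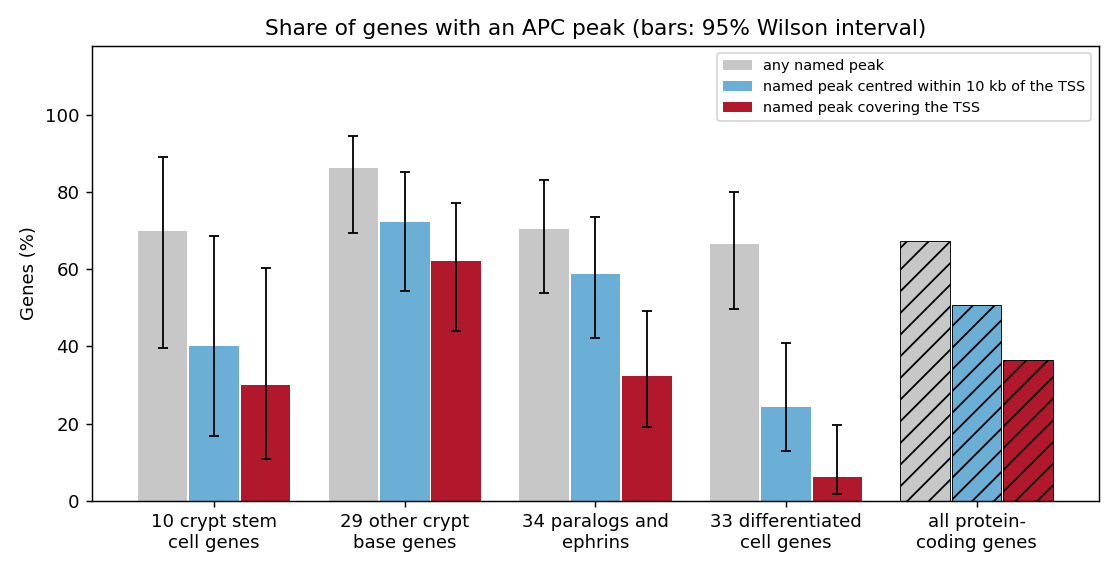
Percent of genes in each list with any named peak, with a named peak centred within 10 kb of the TSS, and with a named peak over the TSS, with error bars for the 95% Wilson interval; the hatched bars give all 20056 protein-coding genes. The 10 crypt stem cell genes stand at 70.0, 40.0 and 30.0%, against 67.4, 50.8 and 36.5% of all genes.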

How the data were processed

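A single deposited list of annotated peaks was analysed, from 1 anti-APC library and 1 input library of HCT-116 cells, grouped by sample title. MACS2 and hg19 are named in the submitters' processing notes. The sources used here do not give the caller's threshold, the use of the input, the aligner or the annotation tool. The deposited score equals end minus start plus 2 in all 44771 rows and is used as a length in bp, and other columns are coordinates and a distance in bp, per the file headers. Coordinates are printed as deposited.

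A peak belonged to the gene it names, or, as an alternative, to the gene whose RefSeq transcript its annotation gives (98.2% of 28598 such peaks matched). A peak covered a TSS if the distance from its centre was at most the centre-to-edge distance. The background was 20056 protein-coding genes of RefSeq (GRCh38.p14, names, order and promoter windows only), to which 98.4% of protein-coding names matched by current or older symbol. Gaps were measured between consecutive peaks. Named were all 10 genes, up to 6 genes of each other list with the longest peaks within 10 kb, and those without a peak. Other genes named, such as LGR5, LRIG2, LRIG3, MSI2, EFNB1 and the ephrins, were chosen after their values were seen. A gene that this rule takes is not reported here. The genes and lists were chosen with earlier results of these data known. Python 3.11.15, numpy 2.4.6, pandas 2.3.3, scipy 1.17.1 and matplotlib 3.10.9 were used, with 95% Wilson intervals. No test was run.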

Additional observations from a re-analysis of the deposited data

How the results depend on the processing

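The count of crypt genes with a peak over the TSS was recomputed under 5 settings and was 3 in all but the third-quartile setting. Among peaks no shorter than the third quartile (2135 bp), which drops the LRIG1 start and leaves 2 starts covered, 6 of the 16 peaks and 4 of the 7 genes were left, with a median of 2531 bp and 0% in promoters against 6.25%. This setting selects on length, and within 10 kb it left 2 crypt genes, 13 other crypt base genes, 8 paralogs and 1 differentiated cell gene, beside 24.5% of protein-coding genes. Peaks of at least the median length were 8, and 4 differentiated cell genes were linked within 10 kb (40.7% of protein-coding genes). Leaving out SINE-centred peaks left 12 peaks. Without peaks centred in any repeat 7 peaks and 4 differentiated cell genes were left (43.2% of protein-coding genes). By annotated transcript there were 10 peaks at 4 genes; distances to the TSS are given for the named gene only, so links were not run under it. Within 1 kb, 2 crypt and 2 differentiated cell genes were linked (35.0% of protein-coding genes). Within 50 kb, 19 differentiated cell genes were linked (63.9% of protein-coding genes), and at any distance 7 crypt and 22 differentiated cell genes. No paired analysis was possible because each group holds 1 library. Read numbers are unknown, so a gene without a peak is not shown to be unbound.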
